A study of Drosophila melanogaster with 13 samples.

Results

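The genes described here are 10 members of the nuclear receptor family of the fruit fly Drosophila melanogaster: eg (eagle), EcR, usp, Eip75B, Eip78C, Hr39, Hr51, Hr78, svp and ERR. They were taken by symbol from the 17737 genes of the count table, and all 10 were found. RNA had been sequenced in 13 libraries, made from neurons that carried GFP and were collected by hand out of fly brains. The labels name the driver line TRH-Gal4 for 4 pools, called here by their label numbers 40, 45, 60 and 57, and the driver line sNPFR-Gal4 for 1 pool, numbered 16, and 8 single cells, numbered 1 to 7 and 10. TRH stands for tryptophan hydroxylase, which carries out the first step of serotonin synthesis, and sNPFR for the receptor of short neuropeptide F. Each Gal4 line labels the cells in which its own regulatory fragment is active, so a labelled cell need not express the gene the line is named for. Per the labels' protocols, a pool held 15 to 60 cells, brains were digested with protease, and those of TRH-Gal4 flies were dissociated while those of sNPFR-Gal4 flies were pinned. The sources used here give no age, sex or further genotype and name no animals.

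Nuclear receptors are transcription factors that bind DNA through a pair of zinc fingers, and most carry a second domain that can hold a small ligand such as a steroid. In flies the steroid ecdysone is bound by EcR together with its partner usp, the fly relative of the vertebrate RXR proteins, and this pair switches on early response genes, among them the receptor genes Eip75B and Eip78C. Other members have no known ligand or take other cues. Hr78 and Hr39 belong to orphan branches, ERR is known for driving genes of sugar metabolism, svp (seven-up) is the fly COUP-TF protein that helps to set neuron identity, and Hr51 (unfulfilled) is known from mushroom body and clock neurons. eg lacks the usual ligand domain, and in the embryonic nerve cord it is required for the serotonergic fate of neurons.

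Depth was 8.72 to 15.6 M reads for TRH pools, 56.1 M for the sNPFR pool and 3.38 to 68.0 M for single cells, and 52.7% of all cell reads came from cell 7. The libraries differed in how many genes they held. Each TRH pool had 5119 to 5686 genes at 10 CPM (reads of a gene scaled to the total of its library) or more, where the sNPFR pool had 2798 and single cells had 784 to 1896. The synaptic genes nSyb, Syt1 and brp were present in both groups, and 0 of the 4 neuron markers passed between them by edgeR, DESeq2 or limma-voom, with 1, brp, at an unadjusted p under 0.05 by edgeR, while elav, a pan-neuronal RNA-binding protein gene, stood at 1.37 CPM in the sNPFR pool and at 0 reads in cell 5. Trh itself averaged 13868 ± 2432 CPM over the TRH pools (SD, n = 4) and had 0 reads in the sNPFR pool. The 8 cells were summed into a single unit, so the test set 4 TRH pools against 2 sNPFR units, and its p-values cover no more than the spread among these samples, which may be technical. Dissociation or pinning went with the driver, so the handling of the brain and the driver cannot be told apart. Reads carry no molecular identifiers, so the floors below cover counting error only. 

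No read of eg was found in any library. The 4 TRH pools, the sNPFR pool and all 8 cells stood at 0 reads, against a floor of 3 reads that corresponds to 0.193 to 0.344 CPM in a TRH pool, 0.0535 CPM in the pool of sNPFR cells and 0.0441 to 0.887 CPM in a single cell. The gene lies on chromosome 3L (21808703 to 21817600, plus strand, BDGP6) and has 3 annotated transcripts with 2033 bases of exon in all. Of all genes in the table, 38.2% likewise had 0 reads in all 13 libraries. Serotonin genes were plentiful in the same pools: the serotonin synthesis and transport genes Trh, SerT, Vmat and Ddc together made up 55955 to 92420 CPM. At this depth eg transcripts were therefore not detectable in cells rich in serotonin genes.

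The other transcription factor genes listed beside eg were not all silent. Of 8 such genes listed, all 8 were tested, of which 3 passed as higher in TRH and 1 as higher in sNPFR, against 10.6% and 3.03% of all tested genes, and all 8 had an unadjusted p under 0.05. DESeq2 passed 6 and limma-voom 4, against 40.9% and 15.1% of all tested genes. The median log2 fold change was 4.25 against 0.67 over all tested genes, but the genes lay both ways. Against the sNPFR pool 5 of the 8 had a higher TRH mean and 3, Lim3, tup and Lim1, a lower one. tup and Lim1 were named after their values were seen. Their log2 fold changes were -2.04 and -2.35, and neither passed (edgeR, adjusted p = 0.144 and 0.115). zfh2, a zinc finger and homeodomain factor, measured 85.5, 194.0, 381.5 and 200.9 CPM across TRH pools 40, 45, 60 and 57 and 0.0535 CPM in the sNPFR pool (edgeR, adjusted p = 0.0215). The homeodomain gene en and the POU factor gene vvl were also higher in TRH, at 24.3 ± 21.3 and 49.1 ± 27.96 CPM there (SD, n = 4). In the sNPFR pool zfh2, en and vvl had 3, 0 and 27 reads, and in all cells together 37, 1 and 21. These 3 genes passed the filter on low counts only through the TRH pools, so their calls and p-values are a description of these libraries. Lim3 passed the other way, with 358.6 CPM in the sNPFR pool against a TRH mean of 2.28 ± 1.63 CPM (SD, n = 4). hkb (huckebein), a zinc finger factor that acts with eg in embryonic neuroblasts, was named after its values were seen. It measured 20.1, 12.5, 0 and 9.45 CPM across TRH pools 40, 45, 60 and 57, with 0 reads in all sNPFR libraries, and did not pass (edgeR, adjusted p = 0.116).

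Hr51 was nearly as empty as eg. This gene of chromosome 2R (15331325 to 15339384, plus strand) had 0 reads in all 4 TRH pools and in the sNPFR pool, 1 read in cell 7 and 1 read in cell 10. Those single reads lie under the floor of 3 reads and correspond to 0.0147 and 0.0521 CPM. Neither eg nor Hr51 passed the filter on low counts, so 8 of the 10 genes entered the test.

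**Figure D1:**
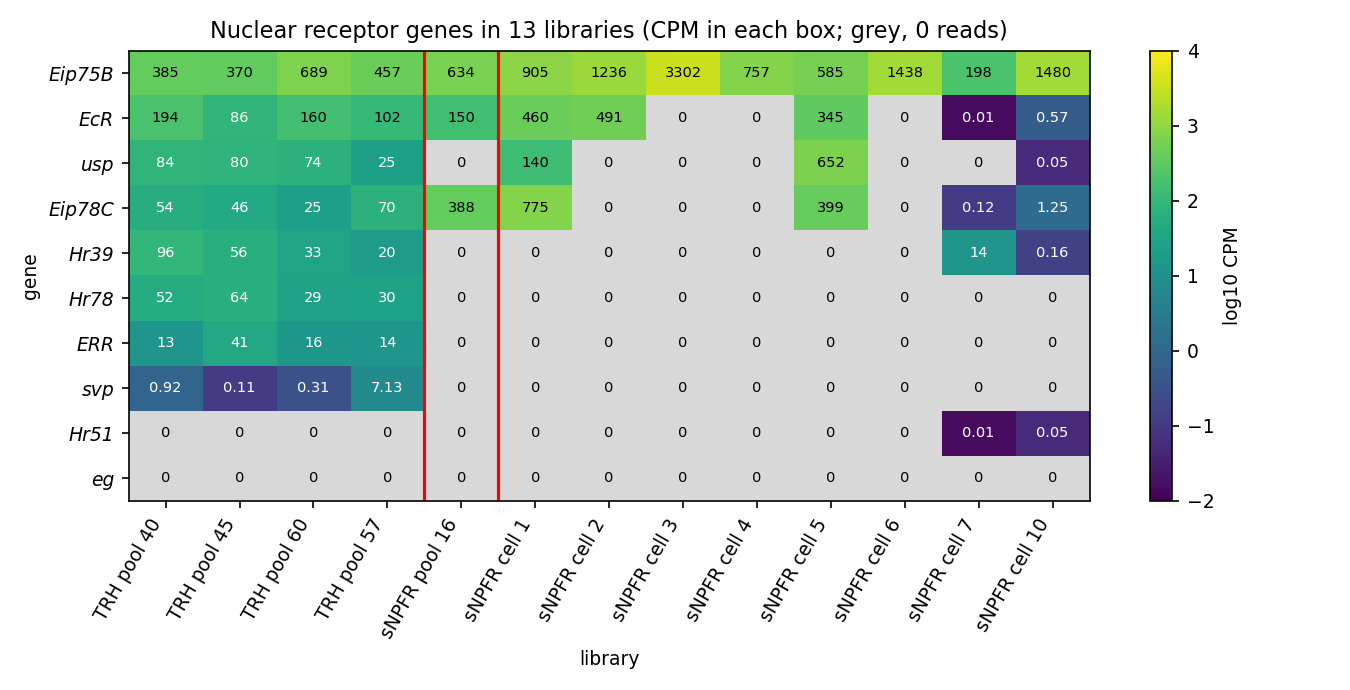
Level of the 10 nuclear receptor genes (rows) in each of 13 libraries (columns), as CPM written in each box and as log10 CPM by colour; grey boxes had 0 reads, and red lines separate the TRH pools, the sNPFR pool and the single cells. Eip75B is filled in every library, eg in none, and Hr78 and ERR in the 4 TRH pools only.

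The ecdysone receptor gene and its partner did not travel together in all libraries. EcR (chromosome 2R, 6087873 to 6169087, minus strand, 6 transcripts that the counts do not separate) stood at 194.4, 86.3, 160.2 and 102.4 CPM in TRH pools 40, 45, 60 and 57, and at 150.03 CPM in the sNPFR pool. The sNPFR pool thus lay within the range of the TRH pools. Among the 8 cells EcR ran from 0 to 491.3 CPM with a median of 0.29 CPM. It was high in cells 1, 2 and 5, at 459.6, 491.3 and 344.6 CPM, had 0 reads in cells 3, 4 and 6, and had 1 and 11 reads in cells 7 and 10. EcR did not pass between groups, with a log2 fold change (TRH minus sNPFR) of -0.29 ± 0.65 (edgeR, adjusted p = 0.791). The value after ± is an approximate standard error, worked back from the fold change and the F statistic of the test. 

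usp (chromosome X, 2038798 to 2042311, minus strand) stood at 84.2, 80.2, 73.6 and 25.1 CPM in TRH pools 40, 45, 60 and 57. The sNPFR pool had 0 usp reads among its 56.1 M, although it held 8419 reads of EcR. In the cells usp reached 140.2 CPM in cell 1 and 652.1 CPM in cell 5, with 1 read in cell 10 and 0 reads in the other 5 cells. Cells 1 and 5 had reads of both receptor genes, and cell 2 held EcR at 491.3 CPM with 0 reads of usp, where 3 reads would be 0.383 CPM. Of the genes whose TRH mean lay between 30 and 100 CPM, as that of usp did, 37.8% had 0 reads in the sNPFR pool. The summed cells stood at 56.6 CPM for usp, of which cell 5 gave 82.7% of the reads, and at 10.5 CPM without that cell. usp did not pass, with a log2 fold change of 0.48 ± 2.24 (edgeR, adjusted p = 0.907), of 2.74 without cell 5 and of -0.48 without cell 7. Against the sNPFR pool alone it passed as higher in TRH (edgeR, log2 fold change 13.16, adjusted p = 0.00323), a fitted value against 0 reads that is no measure of size. Here, and wherever the sNPFR pool or the summed cells stand alone, the sNPFR side is 1 unit with no replicate, assumed to vary like the TRH pools, from which all of the spread comes. In the annotation 265 bases of usp exon, 8.72%, are shared with Actn on the same strand, and Actn stood at 849.4 CPM in cell 1 and at 0 reads in cell 5, so reads from the shared stretch in cell 1 cannot be assigned. The sNPFR pool had 7613 Actn reads and 0 usp reads.

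Per length of exon, the ratio of EcR to usp was 0.706, 0.329, 0.666 and 1.25 in TRH pools 40, 45, 60 and 57. It was 1.002 in cell 1 and 0.162 in cell 5. usp was thus above EcR per length in 3 of 4 TRH pools and in cell 5, and the ratio in pool 57 goes with the low usp of that pool. The lengths are those of all annotated exons, 9934 bases for EcR and 3038 for usp. The transcripts in use are not known, so the ratio is approximate.

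Eip75B, an early ecdysone response gene whose protein binds haem, was the most widely filled of the 10. It stood at 384.9, 370.3, 689.2 and 457.4 CPM in TRH pools 40, 45, 60 and 57, and at 633.9 CPM in the sNPFR pool. Single cells had 198.1 CPM as the lowest, 1071 CPM as the median and 3302 CPM as the highest value. All 8 cells were above 10 CPM (exact Clopper-Pearson 95% interval 63.1% to 100% of cells, which covers the drawing of cells and takes them as independent although their animals are not named), which held for 3.64% of the genes that reached 10 CPM in any cell. Of the genes with a TRH mean of 300 to 1000 CPM, as that of Eip75B, 13.3% reached 10 CPM in all 8 cells. Reaching 10 CPM in all 13 libraries held for 0.868% of all genes, 38.2% of which had no reads in any library. Cells 3 and 7 marked the ends, and 6 of the 8 cells lay above every TRH pool. Cell 5, at 585.1 CPM, lay within the TRH range, and cell 7 lay below every TRH pool. Eip75B spans 113744 bases of chromosome 3L (17950953 to 18064696, minus strand) with 7 transcripts that start at 7 sites, and the counts do not tell which of them was present. The log2 fold change was -1.07 ± 0.39 and did not pass (edgeR, adjusted p = 0.117). It passed as higher in sNPFR with singleton pairing, another way of scaling (log2 fold change -1.37, adjusted p = 0.0456), and with the summed cells alone, which are 1 unit without a replicate (edgeR, -1.46, adjusted p = 0.0373).

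Eip78C, the other early response gene, was low in the TRH pools and high in few sNPFR libraries. It stood at 53.8, 45.6, 24.9 and 70.4 CPM in TRH pools 40, 45, 60 and 57 and at 387.9 CPM in the sNPFR pool. Cells 1 and 5 held it at 775.3 and 399.3 CPM, cell 10 at 1.25 CPM and cell 7 at 0.118 CPM, and cells 2, 3, 4 and 6 had 0 reads. The sNPFR pool and both high cells lay above every TRH pool, and the 6 other cells below all of them. The log2 fold change was -2.64 ± 0.80, which did not pass (edgeR, adjusted p = 0.0739). It passed as higher in sNPFR without cell 7 (edgeR, log2 fold change -2.98, adjusted p = 0.0306), where the summed cells rose from 82.9 to 175.0 CPM. Cell 7 held 8 reads of Eip78C and 52.7% of all cell reads, so leaving it out favours that outcome. Eip78C also passed with singleton pairing and with DESeq2, but not with limma-voom (log2 fold change -2.09, adjusted p = 0.51). Against the sNPFR pool alone, 1 library without a replicate, the log2 fold change was -3.30 (edgeR). Counting that setting, it passed in 4 of 22 alternatives.

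The cells that held Eip78C were those that held usp. Both genes reached 10 CPM in cells 1 and 5 and in no other cell, a pattern shared by 58 of the 4285 genes that reached 10 CPM in any cell, or 1.35%. EcR was at 10 CPM or more in cells 1, 2 and 5 only, as were 0.513% of those genes. Cells 1 and 5 each held 4 of the 10 genes, cells 2 and 7 held 2, and cells 3, 4, 6 and 10 held Eip75B alone. Over all genes, cell 7 held 1896 at 10 CPM, cell 1 1875, cell 5 1654, cell 6 1651 and cell 2 1501. Cell 10 held 966, cell 3 868 and cell 4 784. A link between this number and the number of receptor genes was not tested. Glia markers were found in pools of both drivers: of 11 listed, 3 reached 10 CPM in the sNPFR pool and 3, 5, 4 and 3 in TRH pools 40, 45, 60 and 57. Their summed level was 1591 CPM in the sNPFR pool, of which Eaat1 gave 1105 CPM, against 138 to 570 CPM in the TRH pools. In the sNPFR pool repo, nrv2, wrapper, moody, gcm, Gat and Mdr65 had 0 reads. Of these, nrv2, gcm and Gat each reached 10 CPM in at least 1 TRH pool. Cell 5 had 0 reads of all 11, and cell 1 had 1 marker above 0 reads, nrv2, at 129.7 CPM. The part of glial RNA in the Eip78C and EcR levels of the sNPFR pool was not tested.

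**Figure D2:**
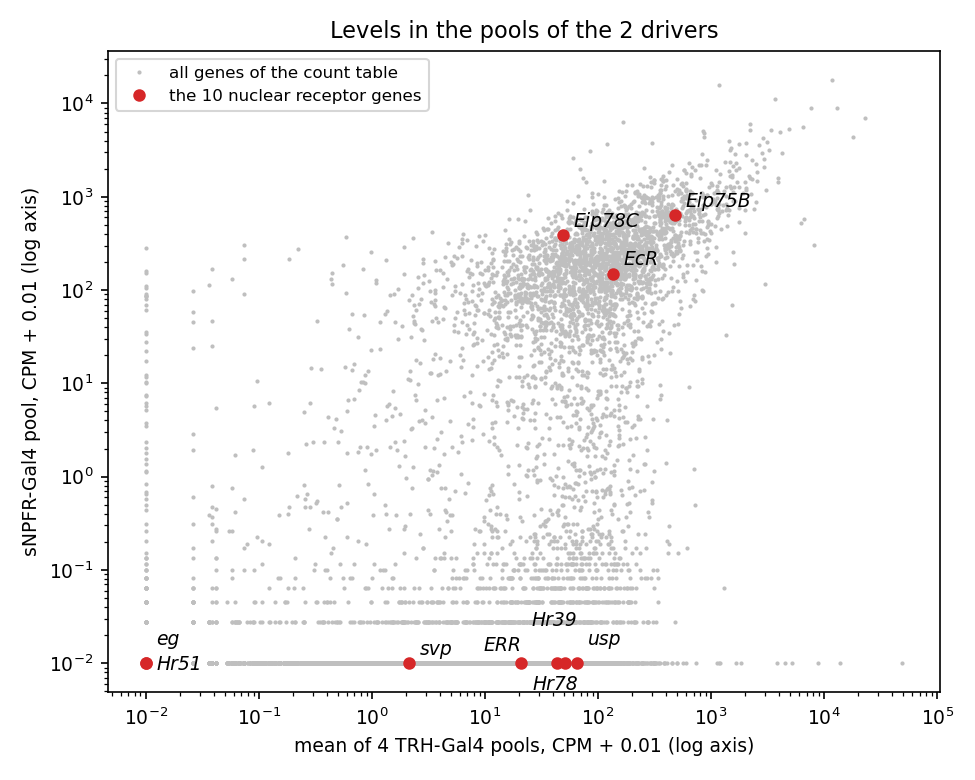
Mean CPM over the 4 TRH pools (x axis, log scale, 0.01 added) against CPM in the sNPFR pool (y axis, log scale, 0.01 added) for all genes of the count table in grey and the 10 nuclear receptor genes in red. Eip75B, EcR and Eip78C lie in the main cloud, with Eip78C at 387.9 CPM in the sNPFR pool, and the other 7 lie on the line of 0 reads in that pool.

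Hr78 and ERR were the genes that passed between the drivers. They were 2 of 8 tested, both higher in TRH, where 10.6% of all tested genes were called in that direction and 13.6% in either. Higher in sNPFR were 0 of the 8 by edgeR, against 3.03% of all tested genes, and 1 by DESeq2, Eip78C. Eip75B and Eip78C, both with a negative fold change, had an unadjusted p under 0.05 by edgeR. Hr78 and ERR had 0 reads in every sNPFR library and passed the filter on low counts only through the TRH pools, so both calls and their p-values are given as a description of these libraries. Hr78 (chromosome 3L, 21494019 to 21497494, minus strand), an orphan receptor that can bind the same DNA elements as the EcR and usp pair, stood at 52.3, 63.5, 28.5 and 29.6 CPM in TRH pools 40, 45, 60 and 57. The sNPFR pool and all 8 cells had 0 reads. The TRH mean of 43.5 ± 17.3 CPM (SD, n = 4) was at least 813-fold higher than the sNPFR pool, whose floor is 3 reads, and the difference passed (edgeR, adjusted p = 0.0223). An antisense gene, asRNA:CR43933, covers 18.3% of its exon bases and averaged 0.993 CPM in the TRH pools. Whether counting used strand is not stated, so reads from the shared stretch cannot be assigned to either gene.

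ERR (chromosome 3L, 8183361 to 8186671, minus strand) stood at 13.4, 40.8, 15.6 and 13.9 CPM in TRH pools 40, 45, 60 and 57, and again at 0 reads in all 9 sNPFR libraries. Pool 45 was high and the other 3 lay close together. The TRH mean of 20.9 ± 13.3 CPM (SD, n = 4) was 391 times the floor of the sNPFR pool, again no bound on the difference in transcript. ERR passed (edgeR, adjusted p = 0.0315). The antisense genes asRNA:CR45869 and asRNA:CR45870 that overlap ERR had 0 reads in all 13 libraries, and 9 bases are shared with Uxs on the opposite strand. In these bulk pools, fewer cells with a transcript and less of it per cell cannot be told apart.

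Both calls rested on the TRH pools. Without pool 45, 60 or 57 neither gene passed, with adjusted p-values of 0.0655, 0.0748 and 0.0825 for Hr78 and 0.0672, 0.0755 and 0.0828 for ERR (edgeR), and without pool 40 both passed (adjusted p = 0.0475 for each). The count over all tested genes fell in the same settings from 1009 to 30, 39 and 16. Absence of such genes from the sNPFR libraries was common: of genes with a TRH mean of 10 to 30 CPM, where ERR lies, 32.2% had 0 reads in all 9 sNPFR libraries, and of those at 30 to 100 CPM, where Hr78 lies, 14.8% did.

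Hr39, a relative of the ftz-f1 receptor with known roles in reproductive glands and neurons, was present in every TRH pool but unevenly. It stood at 95.9, 56.3, 32.6 and 20.05 CPM in TRH pools 40, 45, 60 and 57, a 4.79-fold range, and at 0 reads in the sNPFR pool. Of its 923 cell reads 99.7% came from cell 7, at 13.5 CPM, 3 reads came from cell 10 and the other 6 cells had 0. The log2 fold change of 3.09 ± 2.46 did not pass (edgeR, adjusted p = 0.414). It passed without cell 7 (edgeR, log2 fold change 10.20, adjusted p = 0.0361), which takes out the cell that held the gene and all but fixes that outcome. Against the sNPFR pool alone, 1 library without a replicate and with 0 reads of the gene, it passed as well (edgeR, adjusted p = 0.00565), and the fitted log2 fold change of 12.79 is no measure of size. Markers of insulin-producing cells also differed widely between these pools: Ilp2, Ilp3 and Ilp5 together made up 18445 CPM in pool 40, 59.3 in pool 45, 202.9 in pool 60 and 3857 in pool 57. Their part in the spread of Hr39 was not tested.

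svp (chromosome 3R, 12258737 to 12302785, plus strand) was nearly absent. It had 8, 1, 3 and 111 reads in TRH pools 40, 45, 60 and 57, or 0.917, 0.114, 0.313 and 7.13 CPM, and 0 reads in all sNPFR libraries. Most of its reads came from pool 57, and no library reached 10 CPM. It did not pass (edgeR, log2 fold change 8.92 ± 3.40, adjusted p = 0.134) although DESeq2 passed it (adjusted p = 0.0060), and without pool 40 or pool 57 it did not reach the filter on low counts.

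In 4 of the 8 tested genes, Hr39, Hr78, svp and ERR, all 4 TRH pools lay above all 9 sNPFR libraries, as in 17.7% of all tested genes. In none of the 8 did all TRH pools lie below, against 0.189% of all tested genes. A gene low in sNPFR passes the filter only through the TRH pools, so the first count is a description. Of the 10 genes 7 reached 10 CPM in all 4 TRH pools, and 3 of these 7, EcR, Eip75B and Eip78C, reached 10 CPM in the sNPFR pool. Over all genes at 10 CPM in all TRH pools 57.4% did so.

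**Figure D3:**
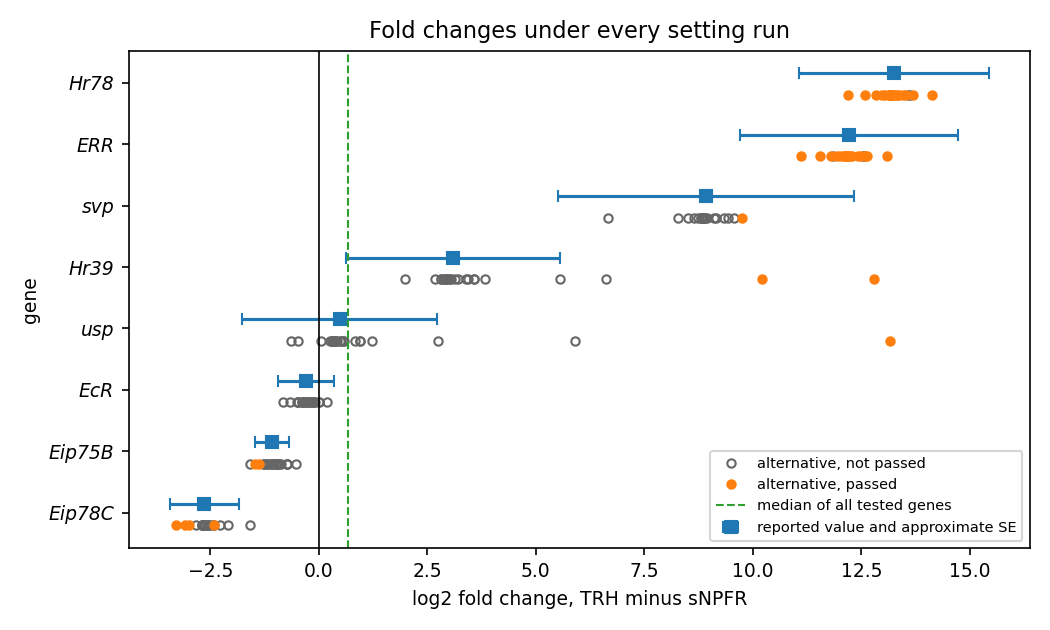
Log2 fold change, TRH minus sNPFR (x axis), of the 8 tested genes (rows); blue squares are the reported values with their approximate standard error, circles the values under each alternative setting, filled orange where adjusted p was under 0.05, and the dashed line is the median of all tested genes, 0.67. Hr78 and ERR stay far to the right under every alternative run, while usp spans both sides of 0; fitted values of Hr78, ERR and svp, and those of usp and Hr39 against the sNPFR pool alone, are set against 0 reads and give no size.

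To set different genes of the TRH pools side by side, levels were divided by the length of all annotated exons of a gene. The counts do not separate transcripts, so a gene that used only part of its exons is set too low. Eip75B has 13451 bases of exon in 7 transcripts, EcR 9934 in 6 and usp 3038 in 2. The order below carries this limit. In CPM per kb of exon, Eip75B came first at 35.3 ± 11.0, followed by usp at 21.7 ± 9.04, Hr78 at 17.96 ± 7.14, EcR at 13.7 ± 5.07, Hr39 at 10.3 ± 6.70, ERR at 9.41 ± 5.97 and Eip78C at 8.28 ± 3.22 (SD, n = 4 for each). The ranges of neighbours in this order overlapped for each of these 7. Within the same pool Eip75B was above usp in 4 of 4 pools, by as little as 28.6 against 27.7 CPM per kb in pool 40, and every other neighbour pair among the 7 changed order in at least 1 pool. Eip78C and svp did not overlap: the lowest Eip78C value was 4.23 and the highest svp value 1.27 CPM per kb. In the sNPFR pool, which has no replicate, Eip78C stood at 66.0, Eip75B at 47.1 and EcR at 15.1 CPM per kb. Eip75B came first in 6 of the 8 cells, usp in cell 5 and Eip78C in cell 1.

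**Figure D4:**
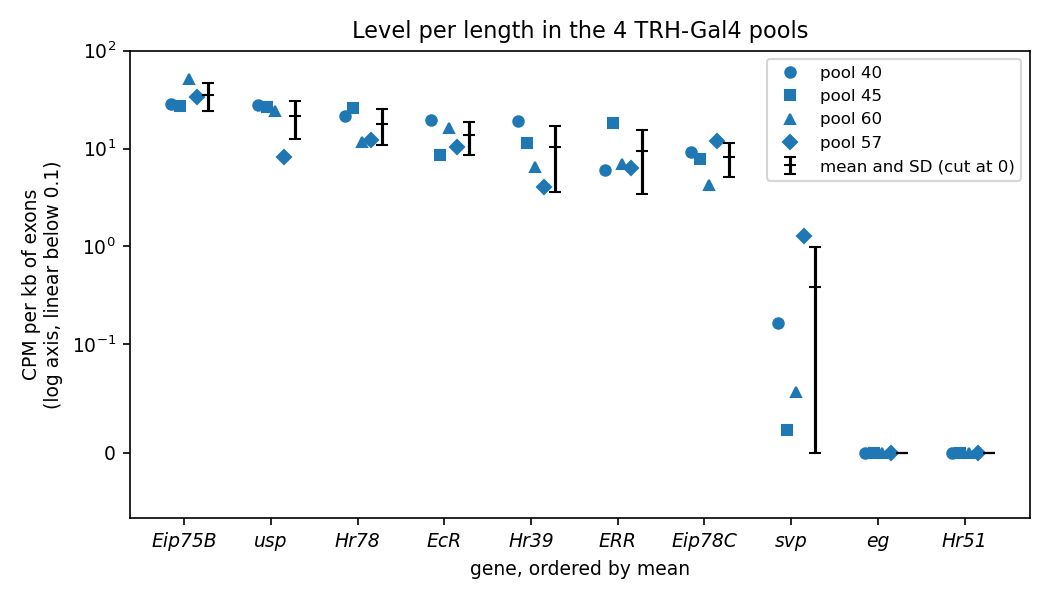
CPM per kb of exon (y axis, log scale, linear below 0.1) for the 10 genes in the 4 TRH pools, 1 symbol per pool, with the mean and SD beside them. From Eip75B at 35.3 to Eip78C at 8.28 neighbours overlap, svp is below 1.3 in every pool, and eg and Hr51 are at 0.

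The 11 other nuclear receptor genes listed gave no call. Of them 8 had reads, 6 were tested, 0 passed in either direction by edgeR, and their median log2 fold change was 0.02 against 0.67 over all tested genes. The embryonic patterning genes kni, knrl and tll had 0 reads in all 13 libraries, so all 3 genes of the knirps group, eg included, were empty. Hr38, an activity-regulated receptor, was the most abundant of the 11, with a TRH mean of 412.4 ± 110.6 CPM (SD, n = 4), 660.5 CPM in the sNPFR pool and a median cell at 697.2 CPM in a range of 0 to 3847 CPM (edgeR, log2 fold change -1.42 ± 0.42, adjusted p = 0.0679). ftz-f1 averaged 70.1 ± 19.2 CPM over the TRH pools, against 8.80 CPM in the sNPFR pool and as much as 364.8 CPM in cell 7. Hr96, a receptor tied to lipid and toxin handling, averaged 35.9 ± 22.7 CPM over the TRH pools, had 0 reads in the sNPFR pool and reached 252.6 CPM in cell 6. Hr3 and Hr4, which act downstream of ecdysone in metamorphosis, stood at 20.2 ± 14.3 and 5.10 ± 5.96 CPM in the TRH pools, and Hr4 reached 257.6 CPM in cell 5. Hnf4 did not exceed 10.2 CPM in any TRH pool and had 0 reads in sNPFR. An unadjusted p under 0.05 by edgeR was reached by 3 of the 6 tested, Hr38, Hr3 and Hnf4. DESeq2 passed 2, Hr3 and Hnf4, and limma-voom passed 0, against 40.9% and 15.1% of all tested genes.

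Genes around the ecdysone receptor were tested as a list of 14, made up of targets, uptake and turnover genes and the membrane receptor gene DopEcR. Of 10 tested, 1 passed, as higher in sNPFR, and the median log2 fold change was 0.78. DESeq2 passed 5 of the 10 and limma-voom 0, where over all tested genes edgeR called 13.6%, DESeq2 40.9% and limma-voom 15.1%. The gene that passed was DopEcR, a membrane receptor for dopamine and ecdysone, with a TRH mean of 317.6 ± 62.5 CPM (SD, n = 4), against 624.7 CPM for the sNPFR pool and 1274 CPM for the summed cells (edgeR, log2 fold change -2.18 ± 0.46, adjusted p = 0.0272). Eip63E, a cyclin-dependent kinase gene, lay the same way and did not pass (edgeR, adjusted p = 0.0634). Eip55E, ImpE1 and ImpL2 lay toward TRH, with 0 reads in the sNPFR pool and means of 22.96 ± 16.2, 17.6 ± 20.8 and 220.9 ± 352.8 CPM over the TRH pools (SD, n = 4). Not every TRH pool held them: Eip55E had 0 reads in pool 40, ImpE1 in pool 45 and ImpL2 in pools 40 and 45. ImpL2 stood at 143.3 CPM in pool 60 and 740.3 CPM in pool 57. These 3 genes did not pass (edgeR, adjusted p = 0.101, 0.121 and 0.139). With DopEcR and Eip63E they were the 5 genes of the list at an unadjusted p under 0.05. Oatp74D, the importer that brings ecdysone into cells, stood at 28.7, 32.0, 6.16 and 25.4 CPM in TRH pools 40, 45, 60 and 57 and at 0 reads in the sNPFR pool. Its only cell above 0 reads was cell 2, at 119.0 CPM, a cell with EcR and without usp. ImpL2, Oatp74D and Eip93F, the ecdysone-induced factor of metamorphosis, were named after their values were seen. Eip93F stood at 549.4, 525.1, 260.6 and 339.1 CPM in TRH pools 40, 45, 60 and 57, at 95.4 CPM in the sNPFR pool and at no more than 0.21 CPM in any cell, and did not pass (edgeR, log2 fold change 2.85 ± 1.98, adjusted p = 0.345).

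Receptor partners and targets outside the ecdysone list gave 1 call in all by edgeR. Over all tested genes edgeR called 13.6%, DESeq2 40.9% and limma-voom 15.1%. Of 15 coregulators all were tested and only ash2, of a histone methylation complex, passed, with a TRH mean of 50.7 ± 23.8 CPM (SD, n = 4) and 0 reads in sNPFR (edgeR, adjusted p = 0.0222). It passed the filter on low counts only through the TRH pools and could only come out higher there, so this call is a description. Of genes with a TRH mean of 30 to 100 CPM, 14.8% likewise had 0 reads in all sNPFR libraries. The median of that list was -1.11, and DESeq2 passed 3 of its genes and limma-voom 2. None of the 3 juvenile hormone genes Met, gce and Kr-h1 passed by edgeR, DESeq2 or limma-voom, 0 had an unadjusted p under 0.05 by edgeR, and their median was -1.29. Of 13 tested genes of glycolysis and the pentose phosphate path, the kind of gene ERR is known to drive, 0 passed by edgeR and by limma-voom, with a median of -0.22, while DESeq2 passed 2, and 2, Ldh and Pgd, had an unadjusted p under 0.05 by edgeR. Of the 13, 9 had a TRH mean above the sNPFR pool and 10 above the summed cells. These counts use CPM, while the median of -0.22 uses TMM scaling. Scaled by library totals, the median log2 fold change over all tested genes was 1.28, so a lean toward TRH was common. Gapdh1, a glycolytic enzyme gene, averaged 555.0 ± 276.7 CPM over the TRH pools (SD, n = 4), below the 1395 CPM of the sNPFR pool and above the 312.3 CPM of the summed cells.

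For each of the 7 genes that reached 10 CPM in any library, the likeness of other genes was measured as the share of the CPM profile over the 13 libraries that overlapped, among 7330 genes. Hr78 was closest to TfIIFbeta, of the basal transcription machinery, with 99.0% overlap, and ERR to CG3021 with 96.5%. Those 2 genes also had 0 reads in all sNPFR libraries, and the overlap is of profiles with 4 filled libraries. Eip78C was closest to ksr, a scaffold gene of the Ras pathway, with 94.5%, and ksr stood at 283.2 CPM in the sNPFR pool, 649.6 CPM in cell 1 and 330.6 CPM in cell 5. Hr39 was closest to IFT43 with 92.7%, EcR to Tim23, a mitochondrial import gene, with 88.8%, usp to Lon, a mitochondrial protease gene, with 87.4%, which was not among its 2 closest on the authors' deposited normalized values, and Eip75B to mam (mastermind), a Notch cofactor gene, with 82.7%. eg, Hr51 and svp did not reach 10 CPM in any library and were not compared.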

How the data were processed

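The main table holds the authors' deposited counts, whole reads for each gene. The build BDGP6 and the tools STAR and edgeR are named, without versions, per the submitters' processing notes. The sources used here do not say how reads were counted, on which annotation or with what strand setting. The authors' deposited normalized table was treated as signal: 100% of its values over 6445 genes were whole reads times a constant per library (relative tolerance 0.001), it lists 7 of the 10 genes, and the count test on those reads called 1201 genes. Groups came from the labels, and 1 column matching no sample was left out. Per the labels' protocols, cDNA came from SMART-Seq v4 with 12 PCR cycles for pools and 17 for cells, and libraries from Nextera XT.

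CPM used column totals. Coordinates, exon lengths and overlaps came from Ensembl release 115 on BDGP6, which may not be the annotation the authors counted on. The test was edgeR 4.0.16 in R 4.3.3 (quasi-likelihood, TMM scaling, filterByExpr, Benjamini-Hochberg over 7426 genes, threshold 0.05, 4 residual degrees of freedom), with DESeq2 1.42.0 and limma-voom (limma 3.58.1) as alternatives, and was tested on simulated data; missing the threshold does not show that a gene was equal in both groups. Python 3.11.15 with pandas 2.3.3, numpy 2.4.6, scipy 1.17.1 and matplotlib 3.10.9 did the rest. The genes and lists were chosen with earlier results of these data known. Named genes were the 10, other receptors at 10 CPM or called, up to 4 of each list by p, and the most alike genes, of which the closest is given; exceptions are marked. Some lists of other cell types are given here only, by edgeR. Muscle had 0 of 3 tested genes passed, hemocyte and fat body 1 of 1 (higher in TRH) and photoreceptor 1 of 1 (higher in sNPFR). Of 6 Kenyon cell markers 3 passed as higher in TRH and 1 as higher in sNPFR. Glia had 0 of 7, insulin-producing cells 2 of 3 and the serotonin genes 4 of 4, the calls all higher in TRH. Pxn, ey, toy and prt, the hemocyte and Kenyon cell calls higher in TRH, had 0 reads in all sNPFR libraries. Trh, SerT, Vmat, Ilp2 and Ilp5 had 0 reads in the sNPFR pool and at most 12 in all cells. These genes passed the filter only through the TRH pools, so their calls are a description. By limma-voom 1 of the 4 serotonin genes passed.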

Additional observations from a re-analysis of the deposited data

Results flagged for a closer look

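Outlying samples were looked for among the 4 TRH pools and among the 8 cells with Dixon's gap ratio on log2(CPM + 1), in 14 combinations of gene and group with any spread. In 4 of them a sample stood apart, and chance marks about 1 in 20 groups. usp in TRH pool 57, at 25.1 CPM, stood below the other 3 pools at 73.6 to 84.2 CPM (gap ratio 0.887 against a limit of 0.829). ERR in TRH pool 45, at 40.8 CPM, stood above the other 3 at 13.4 to 15.6 CPM (gap ratio 0.869). Hr39 in cell 7, at 13.5 CPM, stood above the other 7 cells, which were at 0 to 0.156 CPM (gap ratio 0.946 against a limit of 0.526). Hr51 in cell 10, at 0.0521 CPM, was marked as well, and this is 1 read.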

How the results depend on the processing

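Without single TRH pools or single cells, the number of the 8 tested genes that passed ran from 0 to 4 and that over all genes from 16 to 1226. It was 4 of these genes with singleton pairing and 4 with DESeq2, and 5 with the sNPFR pool alone, against 2. Over all genes DESeq2 called 3039, the sNPFR pool alone 2745 and the summed cells alone 2027, against 1009. EcR turned to higher in TRH with DESeq2 size factors (log2 fold change 0.0153), library totals only (0.20) and DESeq2 (0.0153), without passing. usp turned to higher in sNPFR with the summed cells alone (-0.63) and without cell 7 (-0.48), without passing. With single TRH pools or single cells left out, usp ran from -0.48 to 2.74. The cause was not tested. Hr78 and ERR passed in 19 of 22 alternatives; with 0 reads in all sNPFR libraries their direction could not turn, and 2 of the 22 have 1 unit on the sNPFR side. Over all tested genes the median log2 fold change, 0.67 in the reported setting, lay at 0.41 to 1.28 under other scalings, against which fold changes are read. Calls higher in TRH were 77.7% of all calls, against 67.2% under singleton pairing and 87.9% when scaled by library totals. Summed over the genes, detections in cells were 16 at 10 CPM, 17 at 1 CPM and 15 at 50 CPM. Of the 14 closest genes, 11 were also among the 2 closest on the deposited normalized values. Single genes did change. Hr39 was detected in 1 cell at 10 CPM and in 0 at 50 CPM, and neither gene closest to usp was kept. With 3 reads as the floor, depth limits the cells most, at up to 0.887 CPM. The test on the recovered reads was chosen after seeing the data. No paired analysis was possible because the groups share no replicate number.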
